A study of Mus musculus with 12 samples.

Results

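Expression of 7 complement genes was examined in bone marrow-derived macrophages (BMDMs): C1qa, C1qb, C1qc, C3, Cfp, C3ar1 and C5ar1. They were chosen by symbol as components and anaphylatoxin receptors of the complement system present in the RNA sequencing counts, and they make up 7 of 12960 genes in the table. All 7 passed the filter on low counts that left 10822 genes. Marrow came from wildtype (WT) mice or from mice lacking AMPKβ1 in all tissues (AMPKβ1-/-), and was grown for 7 days with L929 medium, a source of M-CSF. The 4 groups were WT with vehicle (0.1% DMSO), WT with 10 μM PF-06409577 (PF), AMPKβ1-/- with vehicle and AMPKβ1-/- with PF, each treated for 6 h and each with 3 libraries. PF activates AMPK complexes that hold the β1 subunit, so that the compound can be compared between cells with and without it. Neither the labels nor the methods say whether the 3 libraries of a group came from separate mice or cultures, and p-values measure the spread between these libraries only. The age of the mice is not given in the sources used here, and the BMDMs were not stimulated with a microbial product according to the protocols.

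Complement is a set of plasma and cell-surface proteins that marks microbes, immune complexes and dying cells for uptake. C1qa, C1qb and C1qc encode the A, B and C chains of C1q, which starts the classical pathway and, unlike most complement proteins, is made largely by macrophages. C3 is the central protein, on which all activation pathways meet, and its cleavage gives the opsonin C3b and the anaphylatoxin C3a. Cfp encodes properdin, which stabilises the C3 convertase of the alternative pathway and is made by myeloid cells. C3ar1 and C5ar1 encode G protein-coupled receptors, for C3a and C5a respectively, through which macrophages sense complement activation nearby.

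Libraries held 8935609 to 14358180 counts, and member counts lay between 3597 for C3 and 54537 for C1qb, well above the 3 counts that a value of 0 would allow. Levels are given as CPM, counts scaled to a common library size with TMM factors. Prkab1, which encodes AMPKβ1, was at 37.3 to 45.3 CPM in the 6 WT libraries and 6.05 to 9.42 CPM in the 6 AMPKβ1-/- libraries, so no library went against its genotype label. All 7 macrophage markers used (Adgre1, Csf1r, Cd68, Fcgr1, Mertk, Lyz2 and Cd14) passed the filter, and their summed level was 24756 to 29158 CPM over the 12 libraries. Of 9 granulocyte markers 6 were in the table and summed to at most 1.39 CPM, the 4 of 5 dendritic cell markers to at most 1.37 CPM, and the 1 of 5 erythroid markers to at most 1.09 CPM. Of 6 fibroblast markers 5 were in the table, and they summed to at most 1.89 CPM in WT and 8.66 CPM in AMPKβ1-/- BMDMs. Of 8 lymphoid markers 2 were in the table, and they summed to 12.7 to 14.2 CPM in WT and 5.65 to 6.58 CPM in AMPKβ1-/- BMDMs, with only Cd4 passing the filter; the part of this difference in the results was not tested.

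The libraries also differed in how counts depended on the GC content of a gene. The slope of a library's log2 CPM, relative to the mean of all libraries, was 0.36 to 0.72 per 10 percentage points of GC in WT with vehicle and -0.05 to 0.37 in WT with PF. It was -0.36 to -0.10 in AMPKβ1-/- with vehicle and -0.51 to -0.33 in AMPKβ1-/- with PF. The members differ in GC content, with 59.5% in C1qa, 57.5% in C1qc, 57.4% in C1qb, 56.3% in Cfp, 53.3% in C3, 49.2% in C5ar1 and 43.0% in C3ar1. C1qa thus has more GC than 94.5% of the tested genes, while C3ar1 is among the GC-poor ones. Fold changes are given from the counts as they stand, and the main ones also after each library's smooth trend over GC content and transcript length had been taken out.

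All members lie on the minus strand of GRCm38. The C1q genes are neighbours on chromosome 4, in the order C1qb (chr4:136880129-136886187), C1qc (chr4:136889804-136893065) and C1qa (chr4:136895917-136898803), with 3 exons each. C3 (chr17:57203970-57228136) has 41 exons, Cfp (chrX:20925454-20931555) has 9, and C3ar1 (chr6:122847138-122856161) and C5ar1 (chr7:16246743-16259540) have 2 each. Of annotated genes only Mir6978 overlaps a member, inside C3, and it is not in the count table. Since Cfp is X-linked, genes of the Y chromosome were looked at, and Ddx3y, Eif2s3y, Kdm5d and Uty had at least 11 counts in each of the 12 libraries. Their counts were higher in AMPKβ1-/- BMDMs, with 14 to 40 in WT against 106 to 258 for Ddx3y, 25 to 84 against 119 to 260 for Eif2s3y and 11 to 29 against 64 to 136 for Uty, without overlap, while those of Kdm5d overlapped (87 to 249 against 198 to 354). The part of this in the genotype differences of Cfp and the other members was not tested.

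RefSeq promoter windows of GRCm38.p6 were matched for 6 of the 7 members, with C1qa the exception. Those of the secreted components are shown 5′ to 3′ because the counts of these genes were called lower with PF in WT, and capitals mark any of 6 motifs searched on both strands. The windows are chr4:136886201-136886450 for C1qb, chr4:136893066-136893164 for C1qc (the part outside the annotated gene), chr17:57228137-57228386 for C3 and chrX:20931556-20931805 for Cfp, all on the minus strand.
C1qb: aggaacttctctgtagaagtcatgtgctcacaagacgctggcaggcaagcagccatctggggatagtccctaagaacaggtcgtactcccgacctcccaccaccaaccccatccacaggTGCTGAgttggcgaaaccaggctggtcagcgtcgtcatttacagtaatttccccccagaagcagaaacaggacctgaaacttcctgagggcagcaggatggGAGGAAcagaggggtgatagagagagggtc
C1qc: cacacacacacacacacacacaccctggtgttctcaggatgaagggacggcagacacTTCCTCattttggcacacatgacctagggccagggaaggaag
C3: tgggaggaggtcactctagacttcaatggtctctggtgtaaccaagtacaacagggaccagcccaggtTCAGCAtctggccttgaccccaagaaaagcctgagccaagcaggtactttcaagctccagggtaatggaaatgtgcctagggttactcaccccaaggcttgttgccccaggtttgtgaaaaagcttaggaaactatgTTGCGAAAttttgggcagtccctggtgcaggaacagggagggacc
Cfp: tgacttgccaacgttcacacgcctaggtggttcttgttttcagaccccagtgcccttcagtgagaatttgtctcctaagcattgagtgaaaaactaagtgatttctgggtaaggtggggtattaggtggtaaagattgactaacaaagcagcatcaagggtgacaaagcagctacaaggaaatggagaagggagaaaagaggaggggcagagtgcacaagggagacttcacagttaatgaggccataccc
The motif of PU.1 (GAGGAA), a factor that macrophages depend on, stood 30 to 25 bases upstream of the RefSeq start of C1qb and, on the opposite strand, 193 to 188 bases upstream of that of C1qc. The short Maf motif (TGCTGA) stood 131 to 126 bases upstream of C1qb and, on the opposite strand, 182 to 177 bases upstream of C3. The receptors, whose windows are not shown, held it too, 17 to 12 bases upstream of C5ar1 and, on the opposite strand, 144 to 139 bases upstream of C3ar1. A C/EBP motif (TTGCNNAA) stood 45 to 38 bases upstream of C3. None of the 6 motifs was in the Cfp window. In the same 250 bases upstream of 32851 RefSeq starts, 23.3% of windows held the PU.1 motif, 16.1% the Maf motif and 9.56% the C/EBP motif. The AP-1 motif (TGANTCA, 6.75% of windows) was found only in the window of C3ar1 among the members, while the interferon-stimulated response element (2.98%) and the E-box (CACGTG, 6.02%) were found in none of the 6.

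C1q transcripts were among the most abundant in these cells. C1qb ranked 19, C1qc 33 and C1qa 71 of the tested genes by mean CPM, against 49 for C3ar1, 238 for Cfp, 358 for C3 and 380 for C5ar1. Together the C1q genes held 0.865% ± 0.046 of all counts in WT with vehicle (SD, n = 3), 0.718% ± 0.051 in WT with PF, 0.711% ± 0.025 in AMPKβ1-/- with vehicle and 0.691% ± 0.029 in AMPKβ1-/- with PF. Compared per length, the level in WT with vehicle was 4687 ± 388 CPM per kb for C1qb, 2259 ± 85.8 for C1qc and 1599 ± 178 for C1qa. It was 444 ± 32.0 CPM per kb for Cfp, 361 ± 8.29 for C3ar1, 156 ± 6.17 for C5ar1 and 97.2 ± 13.7 for C3. No neighbours in this order overlapped in WT with vehicle. In the other groups the order changed only between Cfp and C3ar1. Their ranges overlapped in WT with PF (311 to 364 CPM per kb for Cfp and 345 to 377 for C3ar1), and C3ar1 lay above Cfp in AMPKβ1-/- BMDMs with vehicle (404 to 444 against 286 to 348) and with PF (403 to 432 against 263 to 301). These levels keep the trend over GC content and transcript length, and the order was not tested without it. Taking the trend out moved the vehicle genotype difference of C3ar1 from 0.23 to -0.61 (log2) and that of Cfp from -0.53 to -0.11. With PF, C3ar1 moved from 0.20 to -0.41 and Cfp from -0.29 to 0.0029.

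**Figure D1:**
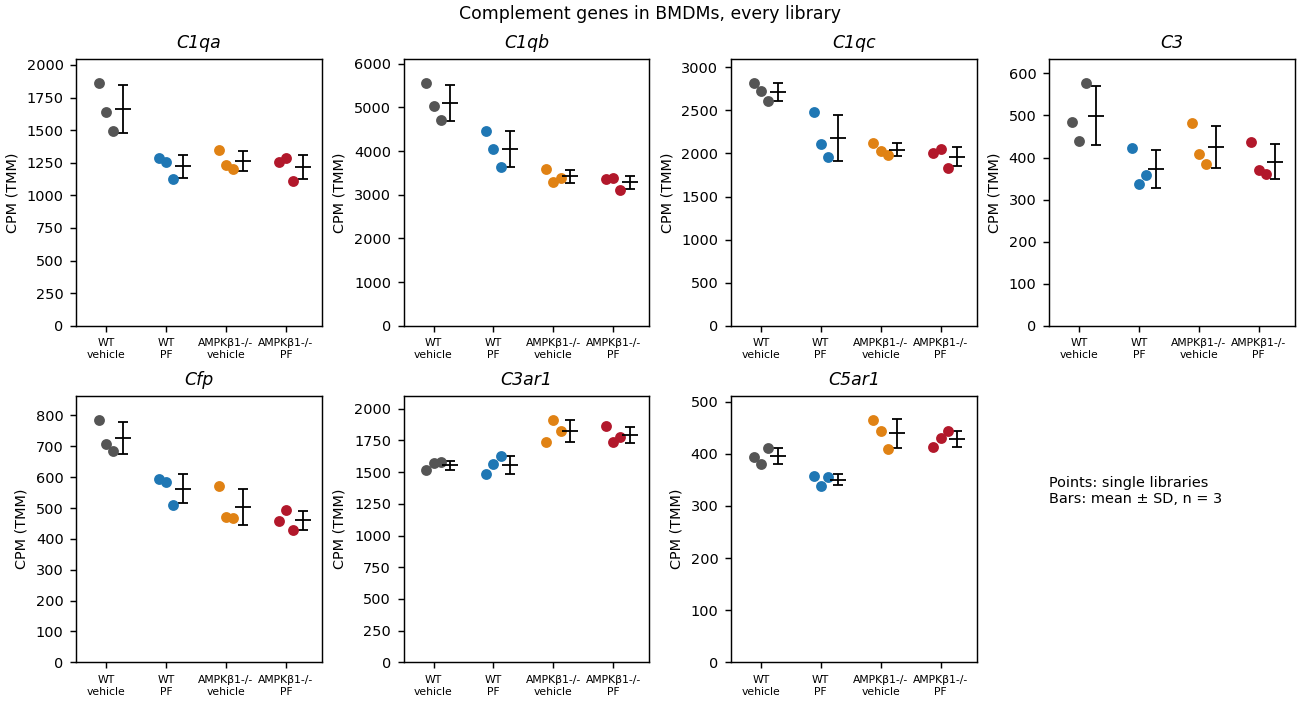
Level of each member in CPM (TMM, linear axis from 0) in every library of the 4 groups, with the mean and SD of 3 libraries beside the points. In WT, PF libraries of C1qa lie between 1125 and 1289 CPM, all below the vehicle libraries at 1490 to 1859 CPM, while those of C3ar1 overlap; in AMPKβ1-/- BMDMs vehicle and PF libraries overlap for all 7 members.

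The first question was what PF did to the complement genes of WT BMDMs. All 5 secreted components fell: C1qa, C1qb, C1qc, C3 and Cfp had 0.736 to 0.803 of their vehicle level, with adjusted p from 0.0081 to 0.0298 (edgeR's quasi-likelihood test, Benjamini-Hochberg over 10822 genes). Neither receptor passed the test. The 5 of 7 members called lower compare with 8.95% of all tested genes called lower and 15.9% called in either direction. The libraries of 6 of 7 members did not overlap, with PF lower, as did those of 18.1% of tested genes. No member went beyond the log2 fold change of 0.8 that the study used as a threshold, which 1.52% of tested genes passed. The study's own supplementary lists of genes lowered in WT, made on these libraries, include the 5 components, so their direction here is not independent evidence. The study's methods give the threshold of 0.8 for its differentially expressed genes, which none of the 5 passed here.

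C1qa, the A chain of C1q, was at 1859, 1640 and 1490 CPM with vehicle and 1289, 1258 and 1125 CPM with PF. Every PF library lay below every vehicle library, and the log2 fold change was -0.44 (SE 0.092, edgeR adjusted p = 0.0081). C1qb, the B chain, was at 5550, 5034 and 4714 CPM with vehicle and 4458, 4049 and 3624 CPM with PF. These did not overlap either, although the lowest vehicle and the highest PF library were close, and the change was -0.33 (SE 0.088, edgeR adjusted p = 0.022). C1qc, the C chain, was at 2814, 2729 and 2609 CPM with vehicle and 2476, 2110 and 1956 CPM with PF. Its PF libraries were more spread than its vehicle libraries (SD 267 against 103 CPM), and the change was -0.32 (SE 0.087, edgeR adjusted p = 0.026).

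C3 was at 484, 438 and 576 CPM with vehicle and 422, 337 and 357 CPM with PF. Its groups did not overlap, but WT vehicle library 3 was well above the other vehicle libraries, and the change was -0.42 (SE 0.12, edgeR adjusted p = 0.0298). Cfp, encoding properdin, was at 785, 709 and 685 CPM with vehicle and 595, 584 and 509 CPM with PF. All PF libraries were lower, and the change was -0.37 (SE 0.094, edgeR adjusted p = 0.0205).

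Neither receptor was called in the counts. C3ar1, the C3a receptor, was at 1514, 1570 and 1580 CPM with vehicle and 1486, 1564 and 1624 CPM with PF. The groups overlapped and their means were nearly equal, with a fold change of 0.0032 on the log2 scale (SE 0.069, edgeR adjusted p = 0.979). C5ar1, the C5a receptor, was at 394, 381 and 412 CPM with vehicle and 358, 338 and 355 CPM with PF. Its PF libraries were all lower, but the change of -0.17 did not pass the test over all genes (SE 0.071, edgeR adjusted p = 0.098).

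The sizes changed when the trend over GC content and transcript length was removed, and the parts of GC content and length in this were not tested apart. Of the 2163 tested genes with a GC content of 55% to 60%, where the C1q genes and Cfp lie, the median log2 fold change in WT was -0.23 and 23.1% were called lower. With the trend removed, C1qa (-0.28, adjusted p = 0.0040) and C1qb (-0.20, adjusted p = 0.0164) were still called lower by edgeR. C1qc (-0.17, adjusted p = 0.065), C3 (-0.26, adjusted p = 0.103) and Cfp (-0.19, adjusted p = 0.051) were not. C5ar1 (-0.20, adjusted p = 0.045) and C3ar1 (-0.38, adjusted p = 0.027) were called lower in that fit, and for C3ar1 this reversed the sign of the main value. In that fit 4 of 7 members and 4.01% of tested genes were called lower, and the median over the members was -0.20, against -0.0062 over all tested genes. Without the correction these medians were -0.33 and 0.0048.

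Single libraries also decided most of these calls. When vehicle library 1 of WT was left out, C1qa alone of the 7 members was called, and the same held when PF library 2 or PF library 3 of WT was left out (highest adjusted p of C1qa 0.0498, edgeR). The adjusted p of C1qb, C1qc, C3 and Cfp then went up to 0.119, 0.137, 0.122 and 0.108. Without vehicle library 3 of WT the call of C3 was lost (edgeR adjusted p = 0.113). A fit to the 6 WT libraries alone called only C1qa (edgeR adjusted p = 0.04998). The change of C1qa ranged from -0.52 to -0.28 over all alternatives and kept its call in each.

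**Figure D2:**
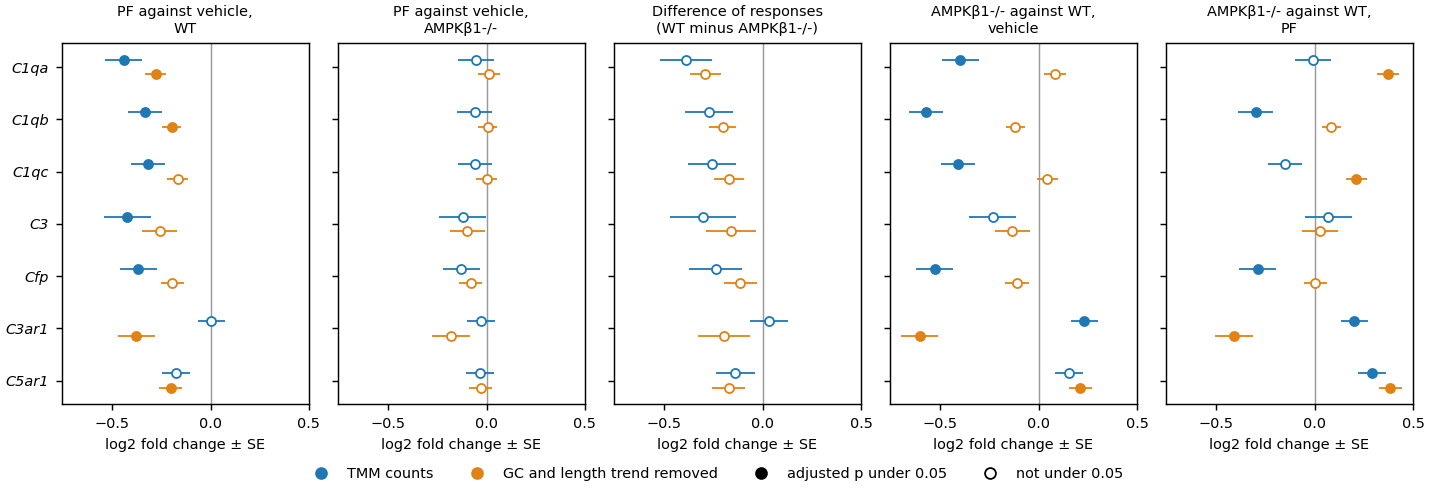
Log2 fold change ± SE of each member (y axis) in 5 contrasts (panels), from the TMM counts (blue) and after removal of the trend (orange); filled points have an edgeR adjusted p under 0.05. In WT the 5 components lie between -0.44 and -0.32 in the counts and between -0.28 and -0.17 with the trend removed, in AMPKβ1-/- BMDMs all 7 counts values lie near 0, and C3ar1 changes sign with the trend removed in both genotype panels.

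In AMPKβ1-/- BMDMs the same comparison asks what PF did without the β1 subunit. None of the 7 members was called, by edgeR or under any alternative run, and none had an unadjusted p under 0.05, against 0.0554% of tested genes called and 4.98% at an unadjusted p under 0.05. Vehicle and PF libraries overlapped for all 7, while 6.28% of tested genes did not overlap with PF lower and 8.21% with PF higher. C1qa was at 1350, 1232 and 1202 CPM with vehicle and 1252, 1283 and 1113 CPM with PF, a log2 fold change of -0.05 with an approximate 95% interval of -0.23 to 0.13. C1qb was at 3591, 3294 and 3392 CPM with vehicle and 3352, 3379 and 3119 CPM with PF, a change of -0.06 with an interval of -0.23 to 0.11. The C1q chains were thus nearly level between the treatments. A fall as large as the fitted -0.44 of C1qa in WT lies outside the C1qa interval. That WT value has an SE of its own (0.092), which the interval leaves out, and the difference itself is tested below.

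C1qc was at 2124, 2025 and 1979 CPM with vehicle and 2000, 2050 and 1835 CPM with PF. C3 was at 481, 407 and 385 CPM with vehicle and 437, 371 and 362 CPM with PF, with a wide interval of -0.36 to 0.11 around a log2 fold change of -0.12. Cfp was at 570, 472 and 468 CPM with vehicle and 458, 493 and 430 CPM with PF, with an interval of -0.31 to 0.06 around -0.13. The lower ends of the intervals of C3 and Cfp come close to their changes of -0.42 and -0.37 in WT. C3ar1 was at 1740, 1912 and 1828 CPM with vehicle and 1861, 1735 and 1776 CPM with PF (log2 fold change -0.03). C5ar1 was at 465, 444 and 409 CPM with vehicle and 413, 431 and 443 CPM with PF (log2 fold change -0.03). With the trend removed the log2 fold change was 0.011 for C1qa, 0.0051 for C1qb, 0.0013 for C1qc, -0.10 for C3, -0.08 for Cfp, -0.18 for C3ar1 and -0.03 for C5ar1.

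Whether the WT and AMPKβ1-/- responses differ was tested directly as the difference between them. No member was called (0.416% of tested genes were), and 2 of 7 had an unadjusted p under 0.05, against 14.3% of tested genes. The difference was largest for C1qa, at -0.39 (SE 0.13, 95% interval -0.65 to -0.13, edgeR adjusted p = 0.199). It was -0.27 for C1qb (SE 0.12, edgeR adjusted p = 0.335), -0.26 for C1qc, -0.30 for C3, -0.24 for Cfp, -0.14 for C5ar1 and 0.03 for C3ar1. The response of C1qa in WT is therefore past the threshold while its difference from the response in AMPKβ1-/- BMDMs is not, and with the trend removed this difference was -0.29 (edgeR adjusted p = 0.073). In that fit it was -0.20 for C1qb, -0.17 for C1qc, -0.16 for C3, -0.11 for Cfp, -0.17 for C5ar1 and -0.20 for C3ar1, none of them called.

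Without PF, the genotypes were compared in the vehicle groups. C1qa, C1qb, C1qc and Cfp were lower in AMPKβ1-/- BMDMs in the counts, C3ar1 was higher, and C3 and C5ar1 did not pass the test. With the trend over GC content and length removed C3ar1 was called lower and C5ar1 higher, and C1qa (0.08) and C1qc (0.04) were not called. The 4 members called lower and 1 called higher compare with 30.0% of tested genes called lower and 29.7% called higher, so a call in this comparison was common. Of tested genes at 55% to 60% GC, where the C1q genes and Cfp lie, 64.2% were called lower, with a median log2 fold change of -0.39. Of those at up to 45% GC, where C3ar1 lies, 79.5% were called higher. The libraries of 4 members did not overlap with AMPKβ1-/- lower (32.0% of tested genes) and those of 1 with AMPKβ1-/- higher (30.9%). Scaling by library size alone moves every genotype difference up by 0.21 on the log2 scale with vehicle and by 0.15 with PF, and gave 4 members called lower and 2 higher with vehicle and 0 lower and 2 higher with PF. With the trend removed 1 member was called lower and 1 higher with vehicle (34.4% of tested genes were called in either direction).

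In the counts C1qb differed most, at 3426 ± 151 CPM in AMPKβ1-/- and 5099 ± 422 CPM in WT (SD, n = 3). Its log2 fold change was -0.57 (SE 0.088, edgeR adjusted p = 0.00012). With the trend removed it was -0.12 (edgeR adjusted p = 0.066), and C3ar1 then differed most. Cfp was at 503 ± 58.0 CPM against 727 ± 52.4 CPM, a change of -0.53 (SE 0.095, edgeR adjusted p = 0.00032) that was -0.11 with the trend removed (adjusted p = 0.158). Both kept their direction and lost their call. C1qa (-0.40, SE 0.092, edgeR adjusted p = 0.0019) and C1qc (-0.41, SE 0.087, edgeR adjusted p = 0.00096) went to 0.08 and 0.04. C3 (-0.23, edgeR adjusted p = 0.102) went to -0.13, and was called lower without WT vehicle library 2 or AMPKβ1-/- vehicle library 1 (lowest adjusted p = 0.032).

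C3ar1 was at 1827 ± 85.9 CPM in AMPKβ1-/- and 1555 ± 35.7 CPM in WT with vehicle. The counts gave a log2 fold change of 0.23 (SE 0.069, edgeR adjusted p = 0.0094), and the fit with the trend removed gave -0.61 (edgeR adjusted p = 0.00033), so both directions pass the test. Without AMPKβ1-/- vehicle library 2 the first of these calls was lost (edgeR adjusted p = 0.053). C5ar1 kept 1 direction. It was at 439 ± 28.1 CPM in AMPKβ1-/- and 395 ± 15.7 CPM in WT, with 0.15 from the counts (edgeR adjusted p = 0.076) and 0.21 with the trend removed (edgeR adjusted p = 0.0101). It was called higher when AMPKβ1-/- vehicle library 3 was left out (edgeR adjusted p = 0.045). It was also called higher with DESeq2 (adjusted p = 0.027), and by edgeR with DESeq2's size factors (adjusted p = 0.048), library size alone (0.00058), upper quartile scaling (0.018) or at least 10 counts in every library (0.036), so that 6 members were called in each of these.

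With PF in both genotypes, 2 members were called lower in AMPKβ1-/- BMDMs (22.9% of tested genes) and 2 higher (24.1%), and the libraries of these 4 did not overlap (30.0% of tested genes lower and 29.9% higher). Of tested genes at 55% to 60% GC 38.8% were called lower, and of those at up to 45% GC 62.2% were called higher. With the trend removed 1 member was called lower and 3 members higher (21.2% and 16.6% of tested genes). C5ar1 was the member with the steadiest difference, at 429 ± 15.5 CPM in AMPKβ1-/- and 351 ± 10.7 CPM in WT. Its log2 fold change was 0.29 (SE 0.071, edgeR adjusted p = 0.0038), 0.38 with the trend removed (edgeR adjusted p = 6.5e-05), and it was called under every alternative, with adjusted p at most 0.024. C1qb (-0.30, edgeR adjusted p = 0.011) and Cfp (-0.29, edgeR adjusted p = 0.0199) were lower in the counts and stood at 0.08 and 0.0029 with the trend removed. C3ar1 was 0.20 higher (edgeR adjusted p = 0.027) and, with the trend removed, at -0.41 (edgeR adjusted p = 0.0038). C1qa, at 1216 ± 90.4 CPM against 1224 ± 87.2 CPM, differed by -0.0092 in the counts, and by 0.37 with the trend removed (edgeR adjusted p = 4.8e-05). C1qc was at -0.15 and 0.21, and C3 at 0.07 and 0.03. The calls of C1qb, Cfp and C3ar1 were each lost without PF library 1 of WT or PF library 3 of AMPKβ1-/- BMDMs (adjusted p up to 0.056, 0.092 and 0.114). Those of Cfp and C3ar1 were also lost without PF library 2 of WT or PF library 1 of AMPKβ1-/- BMDMs, and C1qc was called lower without PF library 3 of WT (edgeR adjusted p = 0.043). The WT PF libraries enter this comparison and the WT response to PF alike, and the WT vehicle libraries enter the WT response and the vehicle comparison alike.

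**Figure D3:**
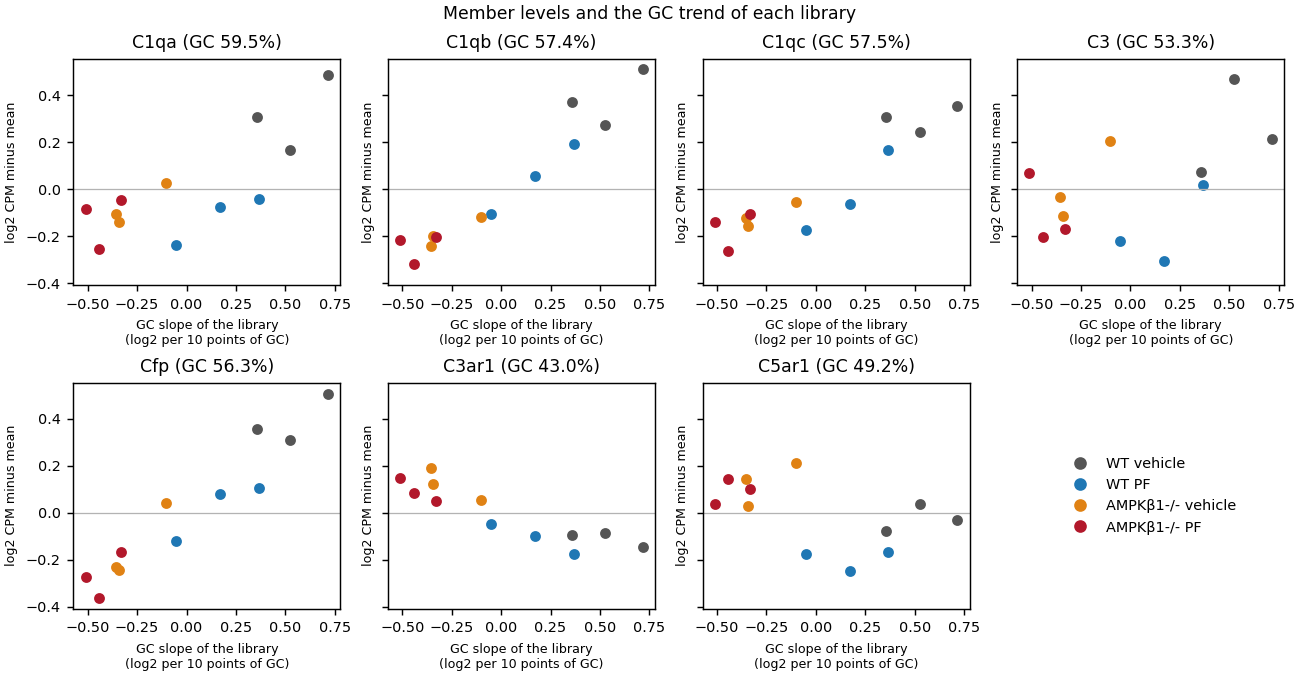
Log2 CPM of each member minus its mean over 12 libraries (y axis) against the GC slope of the library (x axis, log2 per 10 percentage points of GC), with colours for the 4 groups. C1qb and Cfp lie higher in libraries with a higher slope and C3ar1 lies lower, and the WT vehicle libraries have the highest median slope (0.53) and the AMPKβ1-/- PF libraries the lowest (-0.44).

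Ratios between members within a library do not depend on how the library is scaled, and the C1q genes and Cfp are alike in GC content. Counts of C1qb per count of C1qa were 2.99 to 3.46 in the 6 WT libraries and 2.63 to 2.82 in the 6 AMPKβ1-/- libraries. The ranges did not overlap, and the mean log2 ratio was 1.67 ± 0.072 in WT and 1.44 ± 0.042 in AMPKβ1-/- (SD, n = 6), a difference of -0.23 (two-sided exact permutation p = 0.005 with genotypes exchanged within a treatment, the smallest that 400 arrangements can give; 0.0125 adjusted over 5 ratios). With the trend removed the difference was -0.24 (exact permutation p = 0.005). This comparison over both treatments was added after the data were seen.

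Counts of Cfp per count of C1qa were 0.423 to 0.464 in WT and 0.366 to 0.422 in AMPKβ1-/-. These ranges all but met, with the lowest WT library at 0.4226 and the highest AMPKβ1-/- library at 0.4224. The difference of the log2 ratio was -0.21 and, with the trend removed, -0.28 (exact permutation p = 0.005 for each, n = 6; 0.0125 adjusted over 5 ratios for the first). In both ratios C1qa was higher relative to its partner in AMPKβ1-/- BMDMs. The ratios over C1qa share that gene, so their tests are not independent of each other. The C1qc to C1qa ratio differed by -0.08 (exact permutation p = 0.12, n = 6) and, with the trend removed, by -0.10 (exact permutation p = 0.04, n = 6; 0.04 adjusted over 5 ratios). The C3 to C1qa ratio differed by 0.12 (exact permutation p = 0.28, n = 6) and, with the trend removed, by -0.28 (exact permutation p = 0.01, n = 6; 0.0125 adjusted over 5 ratios), so its sign reversed. The C5ar1 to C3ar1 ratio was level in the counts, with a difference of 0.0042 (exact permutation p = 0.935, n = 6), and 0.80 higher in AMPKβ1-/- with the trend removed (exact permutation p = 0.005, n = 6) and at GC contents of 49.2% and 43.0%.

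Within a single contrast, 3 libraries against 3 cannot give an exact permutation p below 0.1. In WT the C1qb to C1qa ratio was 0.10 higher on the log2 scale with PF and the C5ar1 to C3ar1 ratio differed by -0.18, each without overlap and each at that limit (0.286 adjusted over 20 tests). In AMPKβ1-/- BMDMs the C1qb to C1qa ratio differed by -0.0073 between treatments (exact permutation p = 0.7, n = 3).

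**Figure D4:**
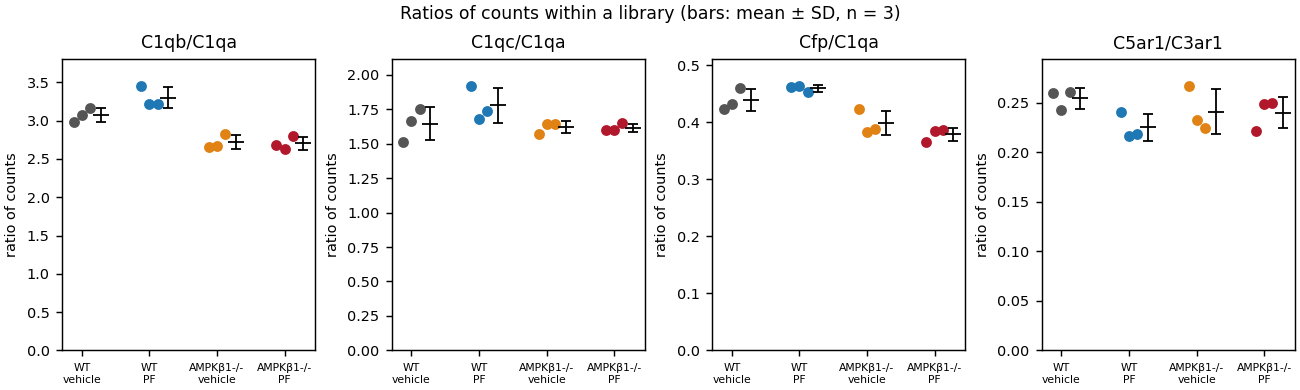
Ratio of counts between pairs of members within each library (y axis, linear from 0) in the 4 groups (x axis), with the mean and SD of 3 libraries. C1qb per C1qa lies at 2.99 to 3.46 in WT and 2.63 to 2.82 in AMPKβ1-/- libraries. Cfp per C1qa lies at 0.423 to 0.464 and 0.366 to 0.422, which all but meet, while C1qc per C1qa and C5ar1 per C3ar1 overlap between the genotypes.

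Across the 12 libraries, which share the 4 groups and the GC trend, C1qb went with C1qc (Pearson's r = 0.97) and Cfp (r = 0.97), and C1qa with C1qc (r = 0.92). C3 went less closely with the C1q genes (r = 0.54 to 0.67). C3ar1 went against C1qb (r = -0.85) and Cfp (r = -0.81), and C5ar1 with C3ar1 (r = 0.69). The non-members most like the mean of the C1q genes were Abhd12 (r = 0.99), Cdkn1a (r = 0.98) and Dpep2 (r = 0.98). For Cfp they were Scamp5, Ctdsp1 and Cd37 (r = 0.98 each), and for C3 they were Sap130, Siglec1 and Stat3 (r = 0.95 each). For C3ar1 they were C1galt1, Sesn3 and Spop (r = 0.97 each), and for C5ar1 Ano6 (r = 0.98), Nectin1 and Itpr2 (r = 0.96 each). Such likeness was common for some profiles and rare for others: 1014 tested genes had an r above 0.9 with Cfp, 823 with C3ar1 and 684 with the C1q mean, but 59 with C5ar1 and 44 with C3.

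Among 47 other complement genes, 26 were in the table and 16 passed the filter: 5 initiators and proteases, 3 regulators and 8 receptors, with none of the terminal pathway. The early proteases C1s1, C2 and Masp1 had at most 12 counts in a library. The genes Hc, Cfd and Cfi are not analysed here. In WT, 2 of the 16 were called lower with PF and 1 higher (8.95% and 6.99% of tested genes), and in AMPKβ1-/- BMDMs none was called (0.0554% of tested genes). Itgam, the α chain of complement receptor 3, which binds the C3b fragment iC3b, was at 523, 574 and 649 CPM with vehicle and 423, 435 and 478 CPM with PF in WT. All PF libraries were lower, with a log2 fold change of -0.39 (edgeR adjusted p = 0.0095) and -0.42 with the trend removed (edgeR adjusted p = 0.00012); without PF library 2 of WT the adjusted p of the first was 0.0504. In AMPKβ1-/- BMDMs it changed by 0.06, and the difference between the responses was -0.45 (edgeR adjusted p = 0.105) or, with the trend removed, -0.47 (edgeR adjusted p = 0.0044).

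Lrp1, a scavenger receptor that works with calreticulin in taking up C1q-coated cells, fell in WT with PF, with a log2 fold change of -0.47 from the counts (edgeR adjusted p = 0.017) and -0.13 with the trend removed (edgeR adjusted p = 0.279). This call was lost without vehicle library 3, PF library 2 or PF library 3 of WT (edgeR adjusted p up to 0.081). Cd93, once described as a C1q receptor, rose by 0.28 (edgeR adjusted p = 0.044), or by 0.17 with the trend removed (edgeR adjusted p = 0.145); its call was lost without any of 8 single libraries (edgeR adjusted p up to 0.194, without PF library 3 of WT). It lies outside the rule for naming genes and was named after its values were seen. C5ar2, the second C5a receptor, did not pass the test in either genotype but stood at 0.748 to 2.99 CPM with vehicle and 2.40 to 6.46 CPM with PF in WT, and 1.09 to 2.86 against 6.04 to 8.10 CPM in AMPKβ1-/- BMDMs. It was also named after its values were seen. Its PF change was 1.16 in WT (edgeR adjusted p = 0.082) and 1.81 in AMPKβ1-/- BMDMs (edgeR adjusted p = 0.158). With the trend removed these were 1.13 and 1.82. The difference between the responses was -0.65 in the counts (edgeR adjusted p = 0.65), on 7 to 94 counts in a library.

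Between the genotypes with vehicle, 6 of the 16 were called lower and 3 higher in AMPKβ1-/- (30.0% and 29.7% of tested genes), and with PF 5 were called lower and 4 higher (22.9% and 24.1%), so such calls were common among all genes. With the trend removed 5 were called lower and 2 higher with vehicle (34.4% of tested genes in either direction). With PF these were 3 and 2 (21.2% and 16.6%). Cd93 (-0.50), Cr1l (-0.51) and Cd59a (-0.77) were called lower with vehicle only in that fit (edgeR adjusted p = 2.9e-05, 8.5e-05 and 0.0033). Cr1l and Cd59a, both regulators, were named after their values were seen. Colec12, a scavenger collectin, was at 13.9 ± 3.26 CPM in WT and 40.4 ± 8.18 CPM in AMPKβ1-/- with vehicle (SD, n = 3), a change of 1.54 (edgeR adjusted p = 5.0e-05) and 0.51 with the trend removed (edgeR adjusted p = 0.0011). It was higher in AMPKβ1-/- with PF as well, by 1.31, or 0.43 with the trend removed. Itgax, the α chain of complement receptor 4, was lower in AMPKβ1-/-, by a change of -0.95 with vehicle (edgeR adjusted p = 0.00062) and -0.84 with the trend removed (edgeR adjusted p = 0.0015). Itgam was higher in AMPKβ1-/- with PF, by 0.67 (edgeR adjusted p = 2.2e-05) and 0.59 with the trend removed.

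Fcna, a ficolin that starts the lectin pathway, was lower with vehicle by a change of -0.66 (edgeR adjusted p = 0.00019) and by -0.25 with the trend removed (edgeR adjusted p = 0.046). With PF its change was -0.42 (edgeR adjusted p = 0.0055), and -0.09 with the trend removed (edgeR adjusted p = 0.452). Cd55, a membrane inhibitor of the convertases, was higher by 2.15 with vehicle (edgeR adjusted p = 0.00098) and 1.17 with the trend removed (edgeR adjusted p = 0.046), on at most 8 counts in a WT library. With PF it was higher by 1.84 (edgeR adjusted p = 0.0048), or by 1.01 with the trend removed (edgeR adjusted p = 0.079). C1qbp (-0.27), a mitochondrial protein that can bind C1q, Itgb2 (-0.28), the β chain shared by complement receptors 3 and 4, and Calr (-0.25), encoding calreticulin, were lower in AMPKβ1-/- with vehicle (edgeR adjusted p = 0.0076, 0.0045 and 0.0105), and stood at 0.04, -0.02 and -0.12 with the trend removed, none of them called. The call of Calr was lost without AMPKβ1-/- vehicle library 2 (edgeR adjusted p = 0.0502). Lrp1 did not differ with vehicle past the test (-0.03) and was 0.42 higher in AMPKβ1-/- with PF (edgeR adjusted p = 0.0074), or 0.06 with the trend removed.

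**Figure D5:**
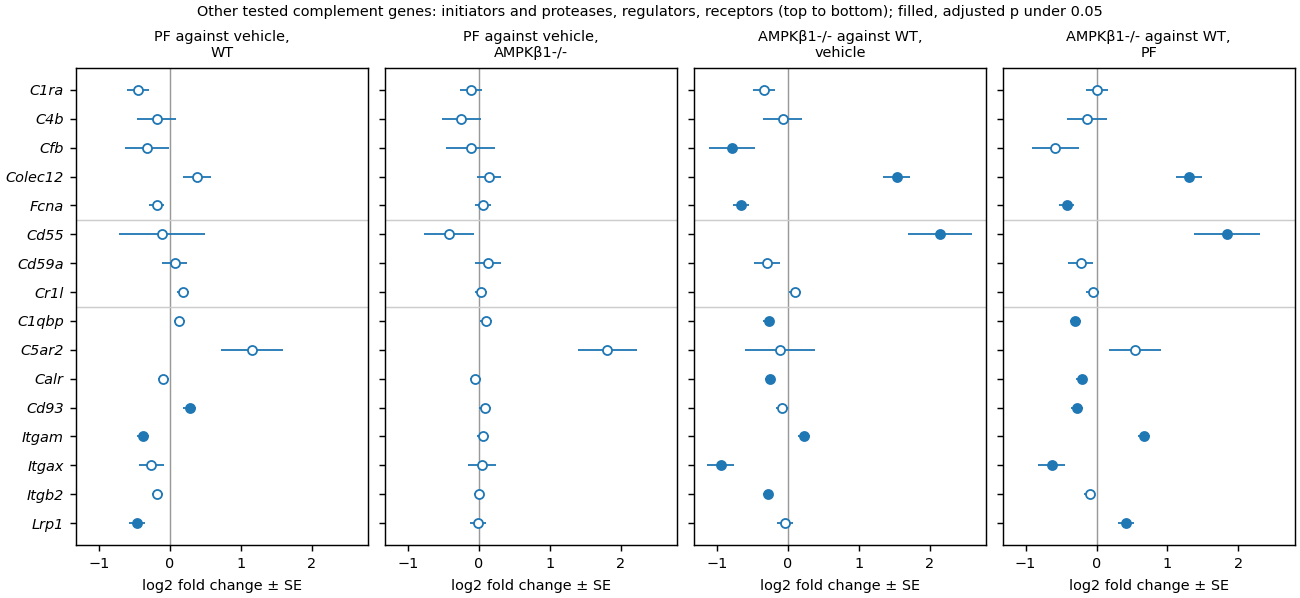
Log2 fold change ± SE (x axis) of 16 other complement genes, in the order initiators and proteases, regulators and receptors, in 4 contrasts (panels) from the TMM counts; filled points have an edgeR adjusted p under 0.05. In WT, PF moved Itgam (-0.39) and Lrp1 (-0.47) down and Cd93 (0.28) up past the test, no point is filled for PF in AMPKβ1-/- BMDMs, and Colec12 and Cd55 lie furthest to the right between the genotypes.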

How the data were processed

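Per the labels and the methods, total RNA of BMDMs went into directional libraries, and the authors trimmed paired reads with Trim Galore, quantified transcripts with Salmon and tested genes with DESeq2. The deposited table holds 1 whole-number count per gene and library, without normalization, for 12960 genes in 12 libraries. Genome build, version and bias options of Salmon, and whether its estimates were rounded, are not given in the sources used here. Genotype and treatment were read from the column names, whose numbers 1 to 3 are used here only to name libraries. The members, gene lists and tests were chosen with earlier results of these data known.

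Testing was done with edgeR 4.0.16 in R 4.3.3 (quasi-likelihood, robust, TMM, filterByExpr), with all 4 groups of 3 libraries in one model and Benjamini-Hochberg adjustment over 10822 genes, and a gene was called at an adjusted p under 0.05. Each SE is the fold change over the root of its F value, so SE and intervals are approximate. GC content, length and coordinates came from GENCODE M21 (GRCm38): 12703 genes were found under their symbol, another 200 under a former symbol, and 57 had no match. The trend over GC content and length was estimated per library with natural splines (5 df each) and used as an offset. The fits were tested on simulated data. Ratios were compared in Python 3.11.15 with two-sided exact permutation tests. The alternatives were DESeq2 1.42.0, limma-voom (limma 3.58.1), other scalings and filters, a fit to each contrast's own libraries, the offset, a replicate block, and each library left out in turn. Replicate libraries differed by 2.19 to 18.5 times the variance of counting, so no pair was a repeat deposit. Of other complement genes, those with an adjusted p under 0.05 in any contrast are named, up to the 10 with the smallest p; 1 of these and 1 cell type marker are not reported here.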

Additional observations from a re-analysis of the deposited data

How the results depend on the processing

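The 7 members' fold changes in 5 contrasts gave 798 alternative values, of which 706 kept their direction and their side of the threshold, 39 lost their call, 12 gained one and 41 changed sign; of the 728 made without the GC and length trend removed, 673, 31, 9 and 15 did so. PF in AMPKβ1-/- BMDMs and the difference between the responses gave 0 called members under every alternative. The cause of the changes listed here was not tested. The number of members called for PF in WT was 1 in the fit to that contrast's libraries alone (C1qa, adjusted p 0.04998) and 1 to 5 with libraries left out in turn. Between the genotypes it was 2 with vehicle after the trend was removed, with or without the replicate block, and with PF it was 2 at library size alone and 1 to 5 with libraries left out: 1 without AMPKβ1-/- PF library 3 or WT PF library 1, 2 without AMPKβ1-/- PF library 1 or WT PF library 2, and 5 without WT PF library 3.

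Removal of the trend, alone and then with the replicate block, reversed these log2 fold changes. For PF in WT, C3ar1 went to -0.38 and -0.38. For PF in AMPKβ1-/- BMDMs, C1qa went to 0.011 and 0.010, C1qb to 0.0051 and 0.0046, and C1qc to 0.0013 and 0.00093. For the difference between the responses, C3ar1 went to -0.20 and -0.20. Between the genotypes with vehicle, C1qa went to 0.081 and 0.082, C1qc to 0.042 and 0.042, and C3ar1 to -0.61 and -0.60. Between the genotypes with PF, C1qa went to 0.37 and 0.37, C1qb to 0.084 and 0.084, C1qc to 0.21 and 0.21, Cfp to 0.0029 and 0.0018, and C3ar1 to -0.41 and -0.40. The C3 to C1qa ratio over both treatments went to -0.28 with the trend removed. C1qa between the genotypes with PF, at -0.0092, was 0.0049 with DESeq2's size factors, 0.14 at library size alone, 0.015 with upper quartile scaling, 0.011 with at least 10 counts in every library and 0.0050 with DESeq2.

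Leaving out single libraries reversed values near 0, over these ranges. C3ar1 ranged from -0.020 to 0.037 for PF in WT, -0.062 to 0.0056 for PF in AMPKβ1-/- BMDMs and -0.0017 to 0.065 for the difference between the responses. C1qa ranged from -0.093 to 0.0072 for PF in AMPKβ1-/- BMDMs and -0.064 to 0.051 between the genotypes with PF, C5ar1 from -0.083 to 0.0082 for PF in AMPKβ1-/- BMDMs, and C3 from -0.023 to 0.17 between the genotypes with PF. Log2 ratios for PF in AMPKβ1-/- BMDMs ranged from -0.033 to 0.020 for C1qb to C1qa, -0.027 to 0.0057 for C1qc to C1qa, -0.056 to 0.072 for C5ar1 to C3ar1 and -0.13 to 0.0064 for C3 to C1qa. The C1qc to C1qa ratio ranged from -0.075 to 0.030 between the genotypes with vehicle, and the C3 to C1qa ratio from -0.085 to 0.20 for PF in WT and -0.011 to 0.15 between the genotypes with PF.

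The labels do not say whether the numbers 1 to 3 pair the libraries. Deviations of same-numbered libraries correlated between -0.17 and 0.32, which with 3 libraries per group cannot decide it. With the replicate block alone, the members called were 5 for PF in WT, 0 for PF in AMPKβ1-/- BMDMs, 0 for the difference, 5 between the genotypes with vehicle and 4 with PF, the same numbers as without it. For C1qa with PF in WT the SE was 0.067 with the block and 0.092 without it (edgeR adjusted p = 0.0019 and 0.0081). With 3 libraries per group and no block, the SE of a member's fold change was 0.069 to 0.12 in the comparisons of 2 groups, so that small changes are not resolved.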
